A study of Mus musculus with 11 samples.

Results

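Enzymes and transporters of glycolysis and the citric acid cycle were compared across 3 mouse tissues that make catecholamines. The members are 42 genes listed by pathway step, from the glucose transporter Slc2a3 to mitochondrial malate dehydrogenase. A member counted as measured where a row of the array pairs with exactly 1 gene symbol, and its brightest row by the mean over 11 arrays was used. That gave 39 of the 42 members, out of 30142 genes tested. Gpi1 (glucose phosphate isomerase), Eno1 (the ubiquitous enolase) and Mpc2 (a subunit of the mitochondrial pyruvate carrier) were not analysed here.

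The arrays held total RNA from 3 pools of carotid body, 4 pools of adrenal medulla and 4 pools of superior cervical ganglion. The carotid body senses oxygen in arterial blood. Chromaffin cells of the adrenal medulla (medulla below) secrete adrenaline, and the superior cervical ganglion (ganglion below) holds sympathetic neurons. All mice were C57B6 wild types of both sexes aged 2 months, no treatment is named, and there were 10 mice in each carotid body pool and 3 in each pool of the other tissues. A replicate is therefore a pool of whole tissue, p-values measure the spread between pools, and fewer cells of a type and less RNA per cell cannot be told apart.

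Glycolysis splits glucose into pyruvate in the cytosol and yields ATP without oxygen, and lactate dehydrogenase turns pyruvate into lactate so that the pathway can run on. The citric acid cycle oxidises pyruvate in mitochondria and feeds electrons to the respiratory chain. Many steps are served by paralogues, copies of a gene that differ in kinetics and in the tissues that use them. The chemoreceptor cells of the carotid body depend on mitochondrial metabolism to sense oxygen, while neurons use much glucose.

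Values are log2 RMA signals as deposited, and differences are on that scale, so that 1 stands for a 2-fold difference. A gene was called where limma's moderated test gave an adjusted p (Benjamini-Hochberg over all 30142 genes) under 0.05 and the difference was at least 1 in size. Genes taken as silent here (540 vomeronasal receptor and keratin-associated genes) set a background bound, the 95th percentile of their means in a tissue, of 5.41 in carotid body, 5.36 in medulla and 5.45 in ganglion. Of the 39 members, 37 had a mean above the bound in all 3 tissues. Slc16a3 was above it in ganglion alone, and Pgam2 in no tissue. Both are muscle-rich proteins, a lactate exporter and a phosphoglycerate mutase.

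Markers of neurons and of chromaffin and glomus cells were present on the arrays of every tissue, together with those of other cells. None of the lists defines the carotid body alone. The mean of 12 neuron markers was 10.51 to 12.18 on carotid body arrays, 9.27 to 9.69 on medulla arrays and 13.97 to 14.35 on ganglion arrays. All 12 were above the bound in every tissue. On the carotid body arrays it was 12.18, 10.51 and 11.44 on replicates 1 to 3, and these arrays also differed in the members described below. The 7 adrenal cortex markers averaged 15.95 to 16.24 on medulla arrays, against 4.98 to 5.40 on carotid body and 4.87 to 5.46 on ganglion arrays, so the medulla pools held cortex RNA. In carotid body 2 of the 7 and in ganglion 1 of the 7 were above the bound. The 12 skeletal muscle markers averaged 6.60 on carotid body replicate 2, against 5.16 and 5.22 on replicates 1 and 3. Fibroblast markers (7 measured) averaged 13.84 to 13.98 in carotid body, 8.42 to 8.54 in medulla and 10.22 to 10.46 in ganglion. The 6 measured markers of chromaffin and glomus cells averaged 15.20 to 16.44 in carotid body, 17.68 to 17.87 in medulla and 16.22 to 16.77 in ganglion, all above the bound. Smooth muscle markers averaged 10.37 to 10.97 in carotid body and at most 6.94 elsewhere, and adipocyte markers 9.16 to 9.89 in carotid body and at most 6.71 elsewhere. Glia markers were lowest in medulla (8.10 to 8.29, against at least 10.57 elsewhere), and endothelial markers in ganglion (7.42 to 7.68, against at least 10.60 elsewhere). Single markers departed from these means. The glia marker Gfap was highest in medulla (5.79, against 5.74 in carotid body and 5.16 in ganglion). Endothelial Vwf was lowest in medulla (6.45, against 7.23 in ganglion), and smooth muscle Des was highest there (6.59, against 6.05 in carotid body). The other measured members of these lists went with the means. The part of these cell mixtures in the results below was not tested.

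More members were lower than higher in carotid body in both of its contrasts, and most of those called lay below ganglion. Against medulla, carotid body had 3 members called higher and 7 called lower out of 39, with 29 not called, where 6.06% and 4.95% of all genes were called in those directions. Against ganglion, carotid body had 0 members called higher and 19 called lower, beside 5.61% and 8.28% of all genes. The 0 is limma's count, and 2 members were higher at an unadjusted p under 0.05, as at an adjusted p under 0.05 with no fold limit. They are Idh2 and Suclg2. With no fold limit 4286 of all 30142 genes were higher. In medulla against ganglion, 3 members were called higher and 14 lower, beside 5.72% and 7.5% of all genes. The comparisons share arrays with each other and are not independent.

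The 2 stages of the pathway divided differently. Of the 20 measured genes of glycolysis and lactate handling, 12 were called lower in carotid body than in ganglion and 11 lower in medulla than in ganglion, with 0 higher in either (by limma, and 0 and 1 higher at an unadjusted p under 0.05). The median difference of these 20 genes was -1.22 and -1.26, where all genes had medians of -0.02 and -0.08. Between carotid body and medulla the same 20 genes had a median difference of -0.12. Of them 3 were called higher (15.0%, beside 6.06% of all genes) and 2 lower (10.0%, beside 4.95%). Among the 17648 genes above the bound in any tissue 1491 were called lower, a share closer to 10.0%. The 19 genes of pyruvate entry and the citric acid cycle had 5 called lower and 0 higher in carotid body than in medulla (median -0.63, all genes 0.05). These are 26.3% lower, beside 4.95% of all genes, and 0 higher, beside 6.06%. The 5 are Aco1 and Idh1, both cytosolic, with Suclg2, Idh3b and Ogdh. Idh3b (-0.93) and Ogdh (-0.98) were not called without carotid body replicate 2. Against ganglion the 19 genes had 7 called lower (36.8%, beside 8.28% of all genes) and 0 higher (beside 5.61%) in carotid body (median -0.80). At an unadjusted p under 0.05 limma gave 1 and 2 of the 19 as higher. In medulla against ganglion 3 of the 19 (15.8%) were called in each direction (median -0.17), beside 5.72% of all genes higher and 7.5% lower. Among the 17648 genes above the bound in any tissue 1731 were called higher and 2314 lower, shares closer to 15.8%.

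**Figure D1:**
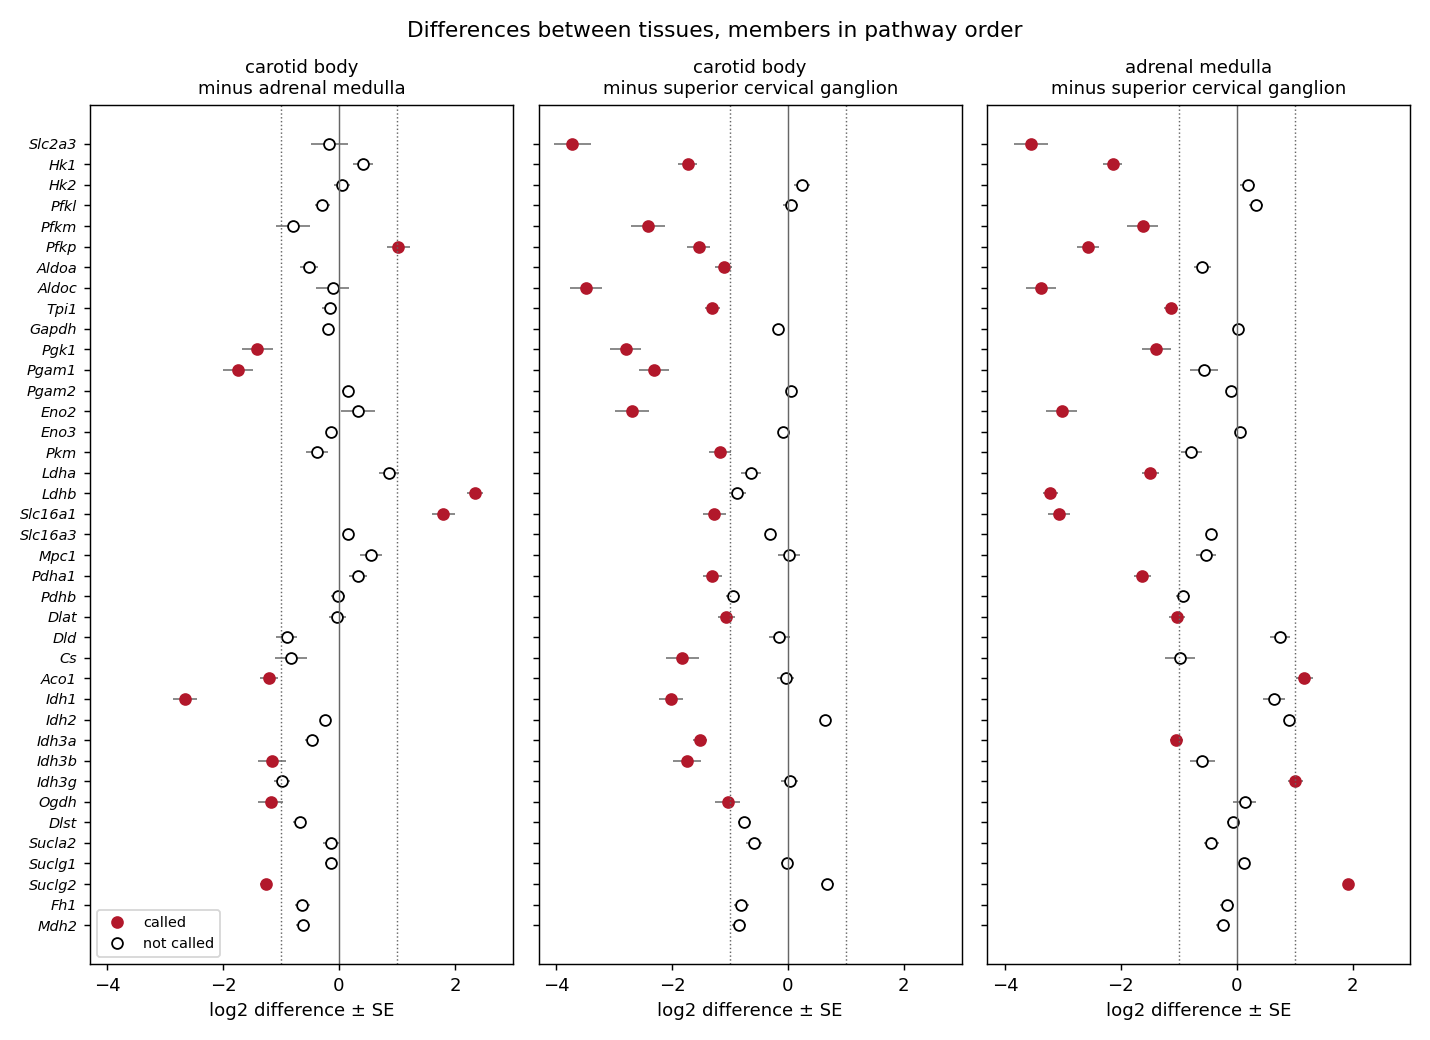
Each row is a measured member in pathway order, and each panel gives its log2 difference in 1 contrast with its standard error (11 arrays, limma). Filled points were called and dotted lines mark a difference of 1. In the middle and right panels most glycolysis genes lie left of 0, whereas Idh3g, Aco1 and Suclg2 lie right of 1 in medulla minus ganglion.

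Glucose entry showed the largest difference of all members. Slc2a3 encodes GLUT3, the high-affinity glucose transporter of neurons. Its signal was 10.61, 9.09 and 9.58 in carotid body, 9.98, 9.99, 10.08 and 9.66 in medulla, and 13.55, 13.13, 13.23 and 14.02 in ganglion. Every ganglion array was above every array of the other tissues, whose ranges overlap. Slc2a3 was 13.2-fold lower in carotid body than in ganglion (difference -3.72, SE 0.32, limma adjusted p = 7.76e-06). It was 11.7-fold lower in medulla than in ganglion (-3.55, SE 0.30, adjusted p = 3.33e-06). Carotid body and medulla differed by -0.17 (limma 95% interval -0.88 to 0.54), a value that was -0.59 without carotid body replicate 1 and 0.17 without replicate 2.

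Hexokinase, which traps glucose in the cell as glucose 6-phosphate, differed through Hk1, the main form of brain and red cells. Hk1 averaged 8.58 ± 0.37 in carotid body (SD, n = 3), 8.17 ± 0.01 in medulla and 10.31 ± 0.24 in ganglion (SD, n = 4 each), the form used for means below. It was 3.32-fold lower in carotid body than in ganglion (limma adjusted p = 1.68e-05) and 4.40-fold lower in medulla than in ganglion (adjusted p = 1.14e-06). Hk2, the insulin-responsive form of muscle and fat, lay close to background everywhere, between 5.55 and 6.27 over all 11 arrays, and was not called in any contrast.

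Phosphofructokinase commits sugar to glycolysis, and its 3 genes had 3 patterns. Pfkp, the platelet form, had signals of 9.89, 9.13 and 9.31 in carotid body, 8.22, 8.39, 8.71 and 8.37 in medulla, and 10.83, 10.71, 11.09 and 11.32 in ganglion, with no overlap between any of the tissues. Pfkp was 2.03-fold higher in carotid body than in medulla (difference 1.02, SE 0.20, limma adjusted p = 0.00266) and 5.91-fold lower in medulla than in ganglion (-2.56, SE 0.19, adjusted p = 1.11e-06). The call against medulla was lost without carotid body replicate 1 (0.80) and without medulla replicate 1 (0.95). It was also lost with median centring of the arrays (0.87) and with array weights (0.92). Pfkm, the muscle form, averaged 10.09 ± 0.49, 10.88 ± 0.14 and 12.51 ± 0.56 in carotid body, medulla and ganglion. It was 5.32-fold lower in carotid body than in ganglion and 3.08-fold lower in medulla than in ganglion (limma adjusted p = 7.44e-05 and 0.000653). Between carotid body and medulla it was not called (-0.79, adjusted p = 0.0668), but it was called at -1.07 without carotid body replicate 1. Pfkl, the liver form, stayed within 8.31 to 9.0 on all 11 arrays and was not called in any contrast.

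The aldolases split fructose bisphosphate into triose phosphates. Aldoc, the form of brain and neural tissue, had signals of 9.54, 8.07 and 8.76 in carotid body, 8.89, 8.99, 8.95 and 8.77 in medulla, and 12.19, 12.04, 12.19 and 12.68 in ganglion. The ganglion arrays stood apart, and the carotid body arrays spread around those of medulla. Aldoc was 11.2-fold lower in carotid body than in ganglion (-3.48, SE 0.28, limma adjusted p = 4.90e-06) and 10.4-fold lower in medulla than in ganglion (-3.37, SE 0.26, adjusted p = 1.71e-06). Aldoa, the ubiquitous form, differed much less. It was 2.17-fold lower in carotid body than in ganglion (-1.11, adjusted p = 0.000165), a call lost without carotid body replicate 2 (-0.94). Its difference between medulla and ganglion was -0.59.

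Tpi1 encodes triose phosphate isomerase, which interconverts the products of aldolase. It was 2.46-fold lower in carotid body than in ganglion and 2.20-fold lower in medulla than in ganglion (limma adjusted p = 2.04e-05 and 2.23e-05), and differed by -0.16 between carotid body and medulla. Gapdh, which makes NADH at the triose step and is often used to scale other genes, ranged over all 11 arrays only from 17.26 to 17.54. Its row pairs with 2 Entrez identifiers, so a related sequence may share its probes. Gapdh differed by -0.19 between carotid body and medulla (limma adjusted p = 0.0319) and by -0.17 between carotid body and ganglion (adjusted p = 0.0458), far under the 2-fold limit.

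Pgk1, which makes ATP at the next step, has 2 rows on this array. The brighter row carries chromosome 12 in its identifier, where RefSeq places the pseudogene Pgk1-rs7, while Pgk1 itself lies on chromosome X. On the brighter row the signal was 13.73, 12.69 and 13.64 in carotid body, 14.66, 15.09, 14.74 and 14.57 in medulla, and 16.42, 15.93, 15.71 and 16.58 in ganglion. It gave a difference of -1.41 between carotid body and medulla (SE 0.27, limma adjusted p = 0.00252) and of -2.80 between carotid body and ganglion (adjusted p = 1.78e-05). The row of chromosome X gave -1.27 and -2.22 in the same contrasts, both called (limma adjusted p = 0.00184 and 2.98e-05). In medulla against ganglion the brighter row gave -1.39 and was called, whereas the row of chromosome X gave -0.95 and was not called. The row of chromosome X was added as an alternative after the values were seen.

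Pgam1, the phosphoglycerate mutase of most tissues, was the glycolysis gene that fell furthest in carotid body below medulla. Its signal was 12.63, 11.51 and 11.57 in carotid body, 13.64, 13.65, 13.64 and 13.64 in medulla, and 14.50, 13.96, 13.86 and 14.53 in ganglion. The carotid body arrays all lay below the others. Pgam1 was 3.33-fold lower in carotid body than in medulla (-1.74, SE 0.26, limma adjusted p = 0.000455) and 4.95-fold lower than in ganglion (-2.31, SE 0.26, adjusted p = 4.63e-05).

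Enolase and pyruvate kinase complete the route to pyruvate. Eno2, the neuron-specific enolase, had signals of 9.14, 8.07 and 8.73 in carotid body, 8.50, 8.50, 8.31 and 7.94 in medulla, and 11.26, 10.91, 11.17 and 11.99 in ganglion. It was 6.46-fold lower in carotid body than in ganglion (-2.69, SE 0.29, limma adjusted p = 3.10e-05) and 8.12-fold lower in medulla than in ganglion (-3.02, SE 0.27, adjusted p = 5.02e-06). Eno3, the muscle enolase, stayed between 6.70 and 7.08 on all arrays and was not called. On carotid body replicate 2, which had the highest mean of the muscle markers (6.60), Eno3 was 6.92, against 6.74 and 6.70 on replicates 1 and 3. Pkm (pyruvate kinase) was 2.24-fold lower in carotid body than in ganglion (-1.17, limma adjusted p = 0.00063). Its difference between medulla and ganglion was -0.78.

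**Figure D2:**
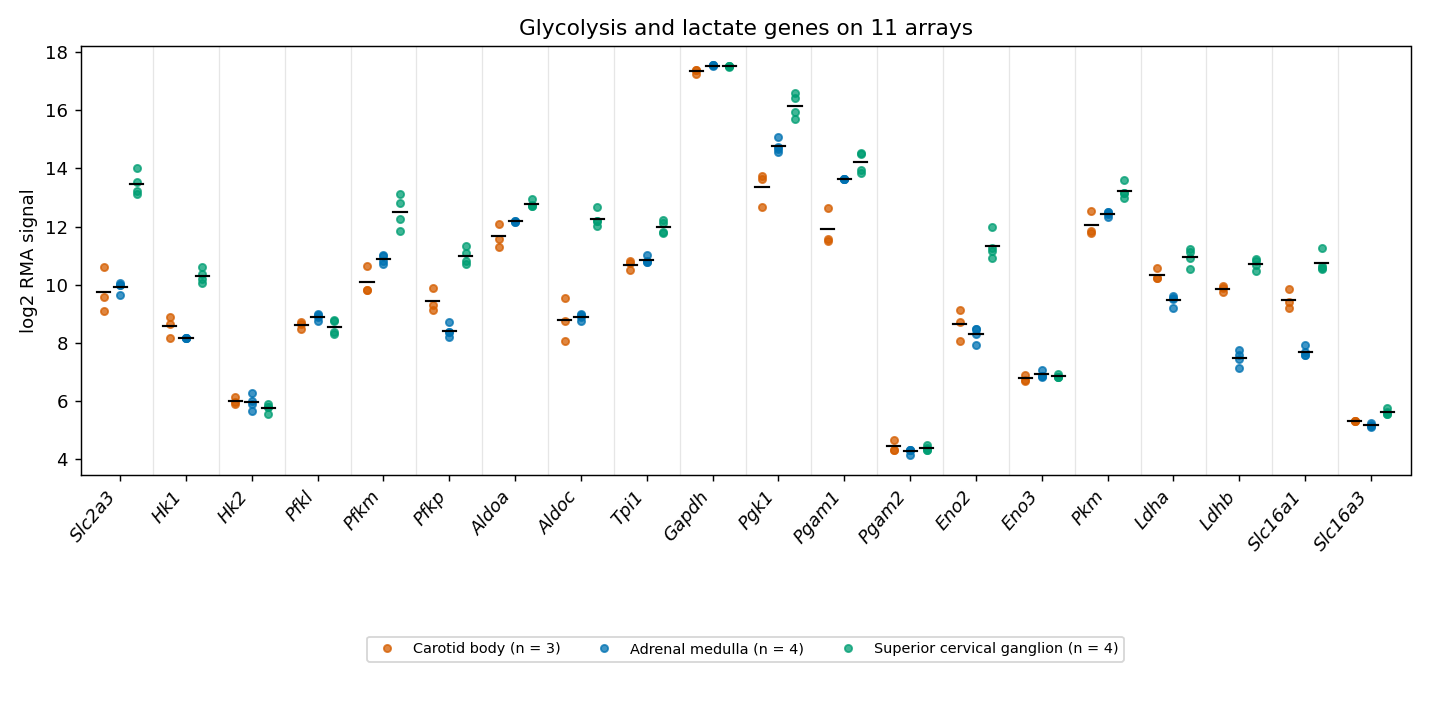
Each point is the log2 RMA signal of 1 array for a glycolysis or lactate gene, in pathway order from left to right. Within each gene, carotid body, medulla and ganglion run from left to right, and bars mark tissue means. Ganglion points lie highest for Slc2a3, Aldoc and Eno2, while medulla points lie lowest for Pfkp, Ldhb and Slc16a1.

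At the lactate end of the pathway medulla stood apart from both other tissues. Ldhb encodes the heart-type lactate dehydrogenase subunit, which favours the use of lactate. Its signal was 9.88, 9.74 and 9.95 in carotid body, 7.77, 7.16, 7.47 and 7.60 in medulla, and 10.69, 10.89, 10.82 and 10.49 in ganglion. The 3 tissues did not overlap. Ldhb was 5.11-fold higher in carotid body than in medulla (2.35, SE 0.14, limma adjusted p = 6.77e-07) and 9.33-fold lower in medulla than in ganglion (-3.22, SE 0.13, adjusted p = 1.43e-08). Between carotid body and ganglion it differed by -0.87, under the limit (adjusted p = 0.00066). Its spread among carotid body arrays was small, and the difference from medulla was 2.31 to 2.41 with any 1 carotid body array left out.

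Ldha, the muscle-type subunit, which favours lactate production, moved less than Ldhb. It averaged 10.34 ± 0.21 in carotid body, 9.48 ± 0.18 in medulla and 10.96 ± 0.30 in ganglion. Ldha was 2.80-fold lower in medulla than in ganglion (-1.49, limma adjusted p = 1.94e-05). The difference between carotid body and medulla was 0.86 (adjusted p = 0.00248), under the limit. Slc16a1 encodes MCT1, a carrier that moves lactate and pyruvate across the plasma membrane. Its signal was 9.87, 9.20 and 9.40 in carotid body, 7.58, 7.58, 7.94 and 7.68 in medulla, and 11.28, 10.59, 10.53 and 10.64 in ganglion. Slc16a1 was 3.47-fold higher in carotid body than in medulla (1.80, SE 0.20, limma adjusted p = 5.77e-05) and 8.38-fold lower in medulla than in ganglion (-3.07, SE 0.19, adjusted p = 2.82e-07). It was 2.41-fold lower in carotid body than in ganglion (-1.27, adjusted p = 0.000517). Slc16a3, which encodes the exporter MCT4, reached 5.55 to 5.77 in ganglion and lay under the bound in the other tissues.

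RefSeq promoter windows of 300 bases (250 before the start, 50 after, GRCm38.p6) were searched for the hypoxia-inducible factor core, since that factor is known to drive many glycolysis genes. Windows were found for 37 of the 39 members (53 windows, as some genes have several starts). The letters ACGTG or GCGTG were searched on both strands, and a CACGTG counts once for each strand. By gene, ACGTG was present in a window of 12 of 19 glycolysis and lactate genes (63.2%) and of 3 of 18 pyruvate and citric acid cycle genes (16.7%), beside 23.2% of 17491 protein-coding genes and 21.8% of all 27025 genes with a window. By window the shares were 50.0%, 32.0%, 20.9% and 19.6%, and 6 of the 8 windows with ACGTG among the pyruvate and citric acid cycle genes belong to Ogdh. GCGTG was present in 57.9%, 55.6%, 41.4% and 35.2% of the same sets by gene. A match says only that these letters are present, and windows of 1 gene can overlap. AAGGTCA, bound by steroidogenic and estrogen-related receptors, was present in a window of 5.41% of members and 5.38% of all genes. The windows of Ldha and Ldhb are shown because these partner genes differed unequally between tissues, with those of Slc16a1 and Aldoc, which were also called in several contrasts. Capitals mark the searched letters, and where a gene has several windows the first one listed is given.
Ldha, chr7:46845554-46845853, plus strand: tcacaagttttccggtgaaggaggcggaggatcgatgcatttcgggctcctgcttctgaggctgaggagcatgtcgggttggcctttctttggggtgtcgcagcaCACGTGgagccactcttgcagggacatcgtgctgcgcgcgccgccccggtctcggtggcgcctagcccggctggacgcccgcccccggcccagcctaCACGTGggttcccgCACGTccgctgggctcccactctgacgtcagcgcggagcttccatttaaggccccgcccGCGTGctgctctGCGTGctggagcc
Ldhb, chr6:142507908-142508207, minus strand: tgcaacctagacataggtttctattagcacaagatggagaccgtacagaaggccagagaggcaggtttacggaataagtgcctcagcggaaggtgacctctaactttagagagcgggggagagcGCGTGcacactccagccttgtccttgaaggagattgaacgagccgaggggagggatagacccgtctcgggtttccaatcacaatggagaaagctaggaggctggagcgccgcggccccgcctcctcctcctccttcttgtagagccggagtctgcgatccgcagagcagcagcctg
Aldoc, chr11:78322823-78323122, plus strand: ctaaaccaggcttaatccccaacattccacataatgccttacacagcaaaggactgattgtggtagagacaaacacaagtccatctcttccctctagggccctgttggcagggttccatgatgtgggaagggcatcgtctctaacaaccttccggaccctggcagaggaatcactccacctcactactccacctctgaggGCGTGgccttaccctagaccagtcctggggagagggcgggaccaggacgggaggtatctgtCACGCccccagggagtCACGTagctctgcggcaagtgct
Slc16a1, chr3:104638414-104638713, plus strand: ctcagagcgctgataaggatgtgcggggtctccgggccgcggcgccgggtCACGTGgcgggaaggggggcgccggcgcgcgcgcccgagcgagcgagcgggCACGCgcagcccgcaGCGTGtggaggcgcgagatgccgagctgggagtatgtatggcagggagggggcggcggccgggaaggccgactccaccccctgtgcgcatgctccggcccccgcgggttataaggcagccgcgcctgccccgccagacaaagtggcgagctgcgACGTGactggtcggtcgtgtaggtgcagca
The Ldha window holds 7 matches, the Ldhb window 1, the Aldoc window 3 and the Slc16a1 window 5. The matches were not tested against the tissue differences.

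Pyruvate enters the mitochondrion through a carrier and is turned into acetyl-CoA by the pyruvate dehydrogenase complex. Mpc1, a carrier subunit, lay between 6.87 and 8.05 on all arrays and was not called. Pdha1, the E1 alpha subunit, had signals of 11.31, 10.99 and 10.64 in carotid body, 10.43, 10.77, 10.68 and 10.74 in medulla, and 12.46, 12.03, 12.23 and 12.41 in ganglion. It was 2.47-fold lower in carotid body than in ganglion and 3.09-fold lower in medulla than in ganglion (limma adjusted p = 8.42e-05 and 6.72e-06).

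Pdhb, the E1 beta subunit, differed by -0.94 between carotid body and ganglion and by -0.92 between medulla and ganglion, under the limit. Without ganglion replicate 3 both were called (-1.03 and -1.01). Dlat, the E2 subunit, was called at -1.06 and -1.03 in those contrasts (limma adjusted p = 0.000194 and 0.00012), and neither call held without ganglion replicate 4 (-0.92 and -0.89). The second was also lost without medulla replicate 4 (-0.98). Dld, the E3 subunit shared with other dehydrogenase complexes, was highest in medulla instead. It averaged 12.37 ± 0.09 in carotid body, 13.27 ± 0.30 in medulla and 12.52 ± 0.30 in ganglion. Its difference between carotid body and medulla was -0.90 (adjusted p = 0.00335), which was called at -1.02 without medulla replicate 3.

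The largest drop of a cycle gene in carotid body was that of Idh1. It encodes the cytosolic, NADPH-producing isocitrate dehydrogenase, so it is a side enzyme of the cycle and not part of the mitochondrial ring. Its signal was 12.81, 12.16 and 12.89 in carotid body, 15.17, 15.53, 15.05 and 15.38 in medulla, and 14.91, 14.33, 14.42 and 14.90 in ganglion. All 3 carotid body arrays lay more than 1 unit below every other array. Idh1 was 6.32-fold lower in carotid body than in medulla (-2.66, SE 0.21, limma adjusted p = 4.06e-06) and 4.05-fold lower than in ganglion (-2.02, SE 0.21, adjusted p = 2.75e-05).

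Citrate synthase (Cs), which starts the cycle, had signals of 13.52, 12.24 and 12.41 in carotid body, 13.46, 13.57, 13.53 and 13.64 in medulla, and 14.88, 14.15, 14.29 and 14.83 in ganglion. It was 3.52-fold lower in carotid body than in ganglion (-1.82, SE 0.28, limma adjusted p = 0.000465). Carotid body replicate 1 lay level with medulla and the other replicates below it. Between those tissues Cs was not called (-0.83, adjusted p = 0.0494), but it was called at -1.23 without carotid body replicate 1. Between medulla and ganglion it stood at -0.98, under the limit, and was called without medulla replicate 4 (-1.01) or without ganglion replicate 2 (-1.11) or 3 (-1.07). Aco1, the cytosolic aconitase that doubles as an iron regulatory protein, was highest in medulla. It averaged 8.50 ± 0.18 in carotid body, 9.71 ± 0.20 in medulla and 8.54 ± 0.26 in ganglion. Aco1 was 2.32-fold lower in carotid body than in medulla (limma adjusted p = 0.000144) and 2.26-fold higher in medulla than in ganglion (adjusted p = 6.64e-05).

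The 3 subunits of the mitochondrial NAD-dependent isocitrate dehydrogenase, which work as 1 enzyme, did not keep step. Idh3a, the catalytic subunit, averaged 10.51 ± 0.21 in carotid body, 10.98 ± 0.15 in medulla and 12.02 ± 0.13 in ganglion. It was 2.84-fold lower in carotid body than in ganglion (limma adjusted p = 4.91e-06). In medulla against ganglion it was called at -1.04, but not without medulla replicate 1 (-0.98) or ganglion replicate 4 (-0.99). Idh3b, a partner subunit, averaged 13.05 ± 0.68, 14.20 ± 0.04 and 14.79 ± 0.13 in carotid body, medulla and ganglion. It was lower in carotid body than in medulla (-1.15, limma adjusted p = 0.00384), a call lost without carotid body replicate 2 (-0.93) or 3 (-0.98), and 3.34-fold lower than in ganglion.

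Idh3g, the other partner subunit, went with medulla. Its signal was 10.99, 11.34 and 11.55 in carotid body, 12.50, 12.19, 12.16 and 12.24 in medulla, and 11.41, 11.10, 11.24 and 11.31 in ganglion. The medulla arrays lay above all others, and carotid body and ganglion overlapped. The difference was -0.98 between carotid body and medulla (limma adjusted p = 0.000278), under the limit, and 1.01 between medulla and ganglion (adjusted p = 8.41e-05), called. The first was called without medulla replicate 2 (-1.01) or 3 (-1.02) or carotid body replicate 2 (-1.0) or 3 (-1.11). The second was lost without medulla replicate 1 (0.93) or ganglion replicate 2 (0.95) or 3 (1.00, just under the limit). Idh2, the mitochondrial NADPH-producing form, differed by -0.25 between carotid body and medulla, by 0.65 between carotid body and ganglion and by 0.90 between medulla and ganglion, all under the limit. Idh1, Aco1 and Idh3g were highest in medulla, as were Dld, Idh2 and Suclg2 (described below). The medulla arrays also held the adrenal cortex markers at 15.95 to 16.24. The part of cortex cells in the levels of these genes was not tested.

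**Figure D3:**
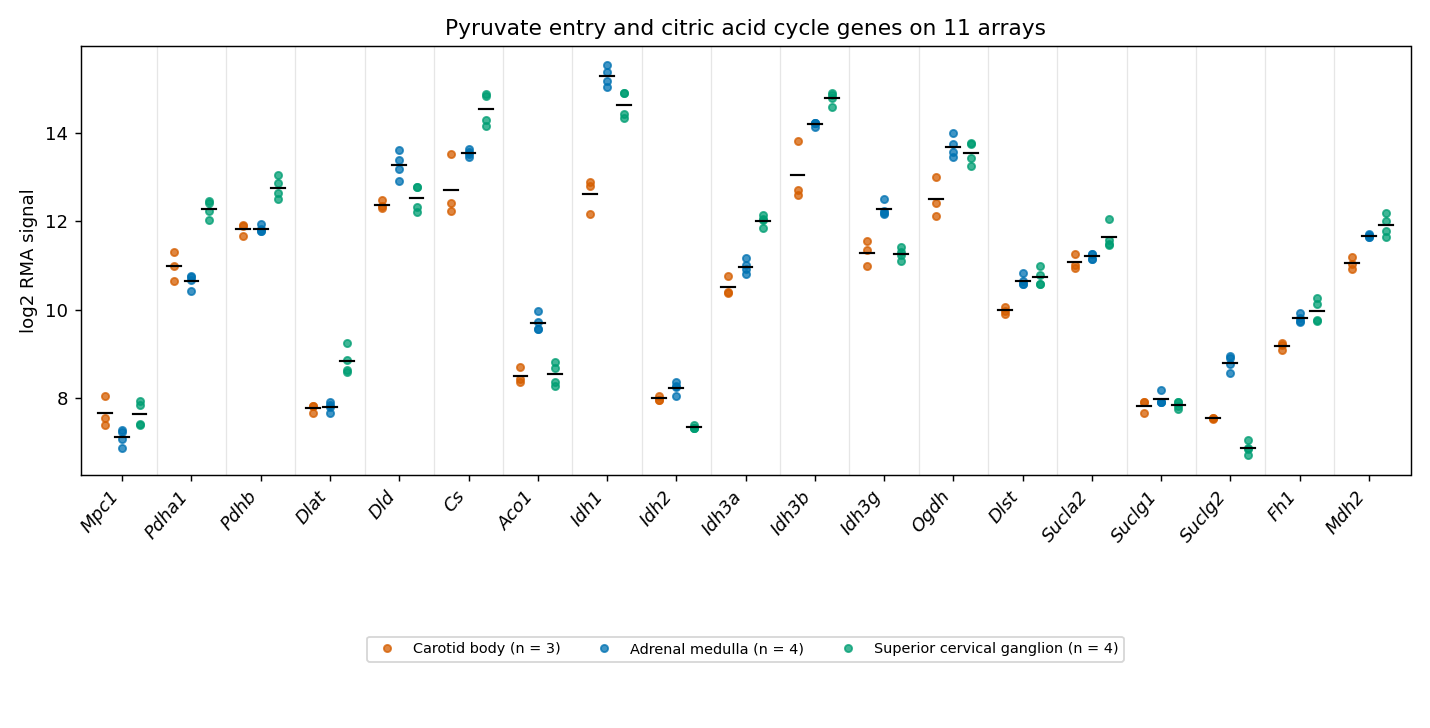
Each point is the log2 RMA signal of 1 array for a gene of pyruvate entry or the citric acid cycle, with carotid body, medulla and ganglion from left to right within each gene and bars at tissue means. Idh1 is lowest on the 3 carotid body arrays, and Aco1, Idh3g and Suclg2 are highest on the 4 medulla arrays.

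In the second part of the cycle Ogdh was called lower in carotid body, and Dlst, Fh1 and Mdh2 lay lower by less than 2-fold. Ogdh, the E1 subunit of oxoglutarate dehydrogenase, was 2.27-fold lower in carotid body than in medulla (-1.18, SE 0.21, limma adjusted p = 0.00163) and 2.06-fold lower than in ganglion (-1.04, SE 0.21, adjusted p = 0.00289). Without carotid body replicate 2 neither was called (-0.98 and -0.84), and the second was also lost without carotid body replicate 3 (-1.0, just under the limit) or ganglion replicate 1 (-0.97) or 4 (-0.98). Dlst, its E2 partner, Fh1 (fumarase) and Mdh2 (mitochondrial malate dehydrogenase) were not called, with differences from -0.62 to -0.68 against medulla and from -0.75 to -0.85 against ganglion. For each of these 3 genes the carotid body arrays lay below all other arrays.

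Succinyl-CoA ligase, the step that makes ATP or GTP directly, joins the alpha subunit Suclg1 to either of 2 beta subunits, the GTP-forming Suclg2 or the ATP-forming Sucla2. Suclg2 had signals of 7.55, 7.55 and 7.52 in carotid body, 8.76, 8.91, 8.56 and 8.96 in medulla, and 7.05, 6.70, 6.87 and 6.84 in ganglion. The 3 tissues did not overlap. Suclg2 was 2.39-fold lower in carotid body than in medulla (-1.26, SE 0.11, limma adjusted p = 7.04e-06) and 3.82-fold higher in medulla than in ganglion (1.93, SE 0.10, adjusted p = 7.27e-08). Its difference between carotid body and ganglion was 0.68 (adjusted p = 0.000505), under the limit. Sucla2 had differences of -0.13, -0.58 and -0.44 in the contrasts of carotid body with medulla, carotid body with ganglion and medulla with ganglion, and Suclg1 of -0.14, -0.01 and 0.13. Neither was called.

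Paralogues were then set against each other within each array, as the log2 difference between 2 genes of a pair, centred on its mean over all 11 arrays. Such a ratio does not move with the scaling of an array, and its absolute level has no meaning because probes differ. Of 11 planned pairs, 9 could be computed. An exact permutation test over the 11550 arrangements of the arrays into 3, 4 and 4 tested whether the ratio differed between tissues. Its statistic does not change when the 2 groups of 4 swap places. The smallest p that this exact permutation test can give is therefore 0.000173, and pairs at that value cannot be ranked by it. Suclg2 over Sucla2 was 0.05 ± 0.19 in carotid body (SD, n = 3), 1.17 ± 0.12 in medulla and -1.20 ± 0.31 in ganglion (SD, n = 4 each), with no overlap (exact permutation p = 0.000173, adjusted over the 9 pairs 0.000312). Sucla2 was not called in any contrast, so in the contrasts with medulla this ratio largely restates Suclg2. Pfkl over Pfkp had the same order of tissues, at 0.10, 1.41 and -1.49, with no overlap (exact permutation p = 0.000173, adjusted 0.000312). Pfkl itself differed little (means 8.61, 8.90 and 8.56) and was not called, so this ratio largely restates Pfkp (9.44, 8.42 and 10.99).

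Aldoc over Aldoa was high in ganglion alone, at -0.71 in carotid body, -1.12 in medulla and 1.66 in ganglion (exact permutation p = 0.000346, adjusted 0.000519), and carotid body and medulla overlapped. Ldhb over Ldha was low in medulla alone, at 0.46, -1.04 and 0.70 (exact permutation p = 0.0026, adjusted 0.0026), and carotid body and ganglion overlapped. Idh1 over Idh2 was low in carotid body alone, at -1.85, 0.56 and 0.82 (exact permutation p = 0.00121, adjusted 0.00156). Idh2 was not called in any contrast, so in the contrasts with carotid body this ratio largely restates Idh1. Pfkm over Pfkp was -0.98, 0.84 and -0.10, with no overlap (exact permutation p = 0.000173, adjusted 0.000312). The ratios of Pgam2 and Slc16a3 to their partners restate the partner gene, as Pgam2 lay under the bound in all 3 tissues and Slc16a3 in 2, so their tests are not read as results. Hk2 over Hk1 was 0.59, 0.94 and -1.38 (exact permutation p = 0.00156, adjusted 0.00175), with Hk2 near background, and carotid body and medulla overlapped.

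**Figure D4:**
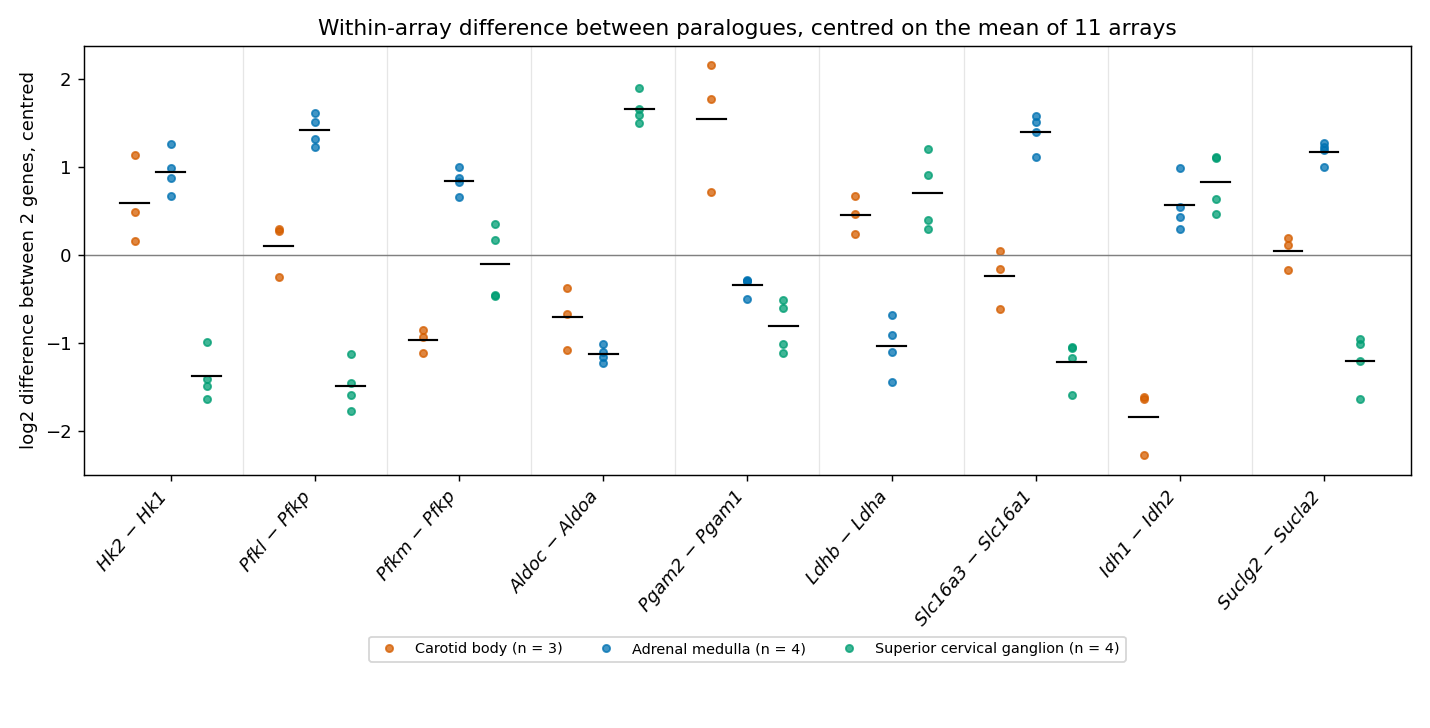
Each point is the log2 difference between 2 paralogues on 1 array, centred on the mean of the 11 arrays, with carotid body, medulla and ganglion from left to right in each pair and bars at tissue means. Suclg2 over Sucla2 separates all 3 tissues, Ldhb over Ldha sets medulla apart, Aldoc over Aldoa ganglion and Idh1 over Idh2 carotid body.

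Values of several members had the order of the neuron markers among the carotid body arrays, an order that markers of other cells shared. For 16 of the 39 members the arrays had the order replicate 1 over 3 over 2, the order of the neuron marker mean, as did 14.4% of all genes. They were Slc2a3, Hk1, Pfkl, Pfkp, Aldoa, Aldoc, Gapdh, Pgk1, Pgam1, Eno2, Pkm, Slc16a1, Cs, Idh3a, Idh3b and Ogdh. Of these, Pgk1, Pgam1, Idh3b and Ogdh were called lower in carotid body than in medulla, the tissue with the lowest neuron marker mean. Pfkp and Slc16a1 were called higher. Idh1, Ldhb and Suclg2 did not have this order. The same order held for the marker means of chromaffin and glomus cells (16.44, 15.20 and 15.82 on replicates 1 to 3) and glia (11.21, 10.77 and 10.80). It also held for endothelial markers (11.15, 10.96 and 10.97), while skeletal muscle markers had the reverse order (5.16, 6.60 and 5.22). The other marker lists had neither order. Ganglion, with the highest neuron marker mean, had the highest signal of Slc2a3, Aldoc, Eno2 and Hk1. Medulla, with the lowest, had means below carotid body for Eno2 (8.31 against 8.64) and Hk1 (8.17 against 8.58). It was not below carotid body for Slc2a3 (9.93 against 9.76) or Aldoc (8.90 against 8.79). The part of neuron content, or of the content of other cells, in these differences was not tested.

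**Figure D5:**
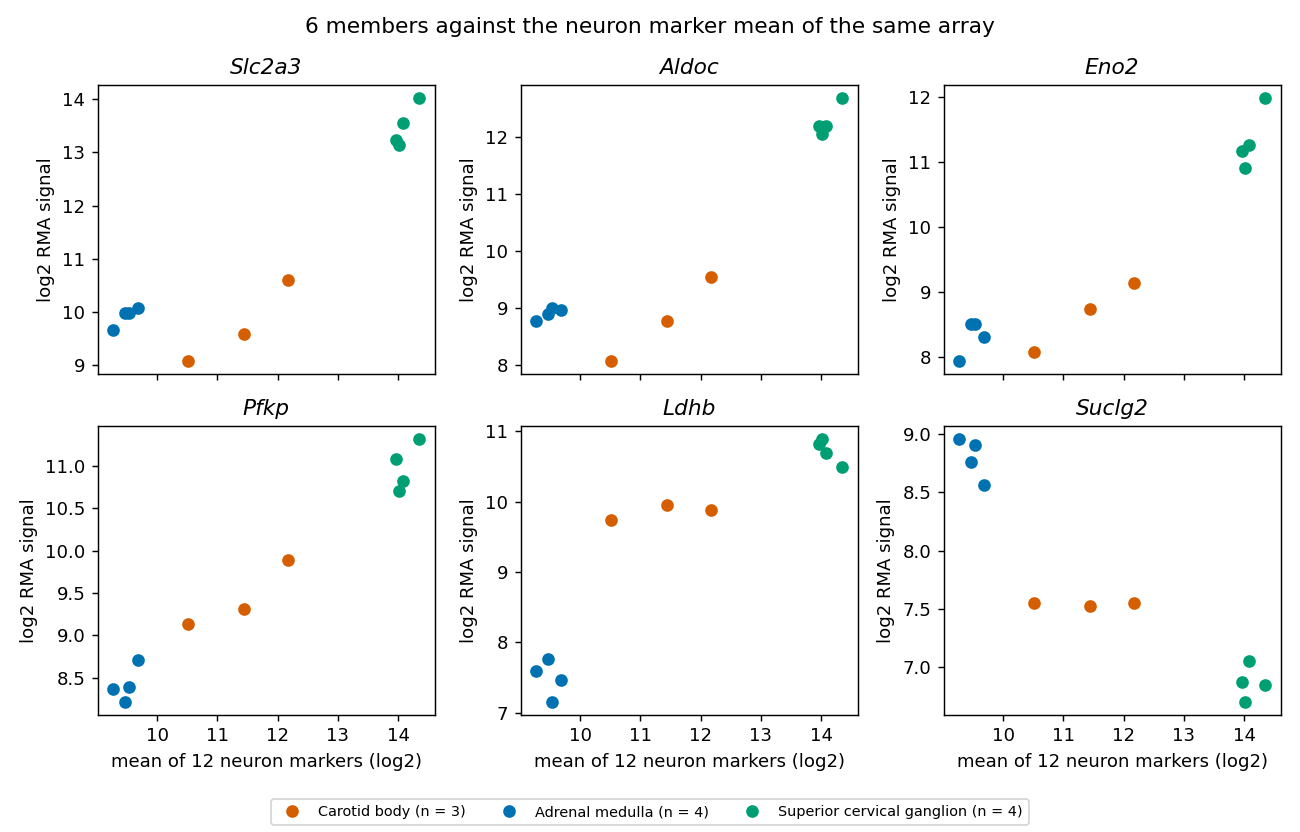
Each point is 1 array, with the mean log2 signal of 12 neuron markers on the x axis and the log2 RMA signal of a member on the y axis. Slc2a3, Aldoc, Eno2 and Pfkp differ between the 3 carotid body arrays in the order of the marker mean, whereas Ldhb and Suclg2 are level across them. Marker means of chromaffin and glomus cells, glia and endothelium, not plotted, have the same order on these arrays.

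Several calls near the limit depended on how the arrays were scaled or weighted. When quantile normalization was repeated on the tested genes, calls against ganglion were lost in carotid body for Aldoa (-0.77), Tpi1 (-0.92), Pkm (-0.82), Slc16a1 (-0.98), Pdha1 (-0.93), Dlat (-0.90) and Ogdh (-0.75). In medulla they were lost for Tpi1 (-0.85), Dlat (-0.91) and Idh3a (-0.73), and Dld was called higher (1.10). Median centring, which moved the median of all genes between carotid body and medulla to -0.10 from 0.05, ended the calls of Dlat (-0.94) and Idh3a (-0.95) in medulla against ganglion, as well as that of Pfkp given above. It added Dld (-1.05) and Idh3g (-1.13) in carotid body against medulla and Pdhb (-1.0) in carotid body against ganglion. The mean of the control features as a covariate ended the calls of Ogdh (-0.88) and Dlat (-0.93) in carotid body against ganglion and of Dlat (-0.93) and Idh3a (-0.97) in medulla against ganglion. Array weights ended that of Dlat in medulla against ganglion (-0.97) and added Cs in carotid body against medulla (-1.0). None of these settings turned a called difference round.

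Another 43 genes of the same pathways were listed as regulators, tissue-restricted forms and remaining subunits, and 38 were measured. Of these, carotid body had 2 called higher (5.26%, beside 6.06% of all genes) and 3 called lower (7.89%, beside 4.95%) than medulla. Against ganglion 1 was higher (2.63%, beside 5.61%) and 4 lower (10.5%, beside 8.28%) in carotid body, and in medulla 0 were higher (beside 5.72%) and 4 lower (10.5%, beside 7.5%). The 0 is limma's count, and 6 of the 38 were higher at an unadjusted p under 0.05. Their median differences were -0.05, -0.15 and -0.07 in these contrasts, beside 0.05, -0.02 and -0.08 over all genes. Among the 17648 genes above the bound in any tissue, 1491, 2495 and 2314 were called lower in these contrasts. The shares of the 38 genes called lower do not exceed those shares, though some of the 38 lie under the bound. Pdk4, a kinase that shuts down pyruvate dehydrogenase, had signals of 12.92, 12.83 and 12.70 in carotid body, 7.52, 8.44, 8.18 and 8.19 in medulla, and 10.11, 9.34, 9.85 and 9.37 in ganglion. The 3 tissues did not overlap, and Pdk4 was 26.6-fold higher in carotid body than in medulla (4.74, SE 0.23, limma adjusted p = 1.24e-07) and 8.87-fold higher than in ganglion (3.15, SE 0.23, adjusted p = 2.79e-06). In medulla it was 3.0-fold lower than in ganglion. Adipocyte and smooth muscle markers were highest on the same carotid body arrays, and their part in the level of Pdk4 was not tested.

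Pfkfb3, which makes the activator of phosphofructokinase, was 3.22-fold higher in carotid body than in medulla (7.89 ± 0.31 against 6.20 ± 0.07, limma adjusted p = 3.46e-06). Ogdhl, a brain-type relative of Ogdh, was 2.79-fold lower in carotid body than in medulla and 2.37-fold lower than in ganglion (limma adjusted p = 4.15e-05 and 0.000112). Mdh1, the cytosolic malate dehydrogenase, was 2.27-fold lower in carotid body than in medulla and 2.49-fold lower than in ganglion, and the second call was lost when quantile normalization was repeated (-0.98). Ldhd, a mitochondrial dehydrogenase of D-lactate, was 2.29-fold lower in carotid body than in medulla. Sdhd, a membrane anchor of succinate dehydrogenase, was 4.03-fold lower in carotid body than in ganglion (9.05 ± 0.29 against 11.06 ± 0.32) and 2.61-fold lower in medulla than in ganglion. Tigar, a phosphatase that lowers the activator made by Pfkfb3, was 3.63-fold lower in carotid body than in ganglion and 2.12-fold lower in medulla than in ganglion, a call lost without ganglion replicate 1 (-0.95) or 4 (-0.91), with repeated quantile normalization (-0.98), with array weights (-0.95) and with the control covariate (-0.87). Slc16a7, another lactate carrier, was 3.16-fold lower in medulla than in ganglion.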

How the data were processed

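RNA of 11 tissue pools was hybridised to Affymetrix mouse transcriptome arrays. The deposited values are log2 signals, which the authors made with RMA, and Affymetrix Expression Console is the software named, per the submitters' processing notes. Software versions and the array's genome build are not given in the sources used here. RMA already corrects the background and quantile-normalizes the arrays, and array maxima were 19.65 to 19.93. The values were taken as log2 because the processing notes label them so, and every fold given here rests on that label.

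Of 65956 transcript clusters, 30604 pair with 1 gene symbol in the platform annotation, 2146 with several and 33206 with none. The brightest row per symbol left 30142 genes, of which 355 had several rows and 819 took a newer symbol through Entrez identifiers. Control features (6732) were left out. Tissue was the only factor in limma 3.58.1 (R 4.3.3, lmFit and eBayes) over all 11 arrays, tested on simulated data beforehand. Paralogue ratios were tested with an exact permutation test in Python 3.11.15. Arrays within a tissue correlated at 0.9854 to 0.9962, and their number limits the precision. Promoter windows come from RefSeq, GRCm38.p6.

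The members, the other pathway genes and the marker lists were chosen with earlier results of these data known. All measured members are named, with at most 6 called genes per contrast of the other list. Same-numbered arrays deviated together at correlations of -0.173 to 0.252, so the numbers were not taken to pair pools. Alternatives were leaving out each array, median centring, repeated quantile normalization, a replicate block, array weights, a control covariate, a filter on dim genes, protein-coding genes alone, the mean of a gene's rows and no fold limit.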

Additional observations from a re-analysis of the deposited data

Results flagged for a closer look

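In groups of 4 arrays, a single array lay far from the other 3 in 6 of the 78 groups of members, by a gap larger than Dixon's 95% critical share of the group's range. Chance flags about 1 in 20 such groups, a rate that does not allow for tied values. Medulla replicate 1 was high for Tpi1 (11.03, against 10.78 to 10.82 on the others), Eno3 (7.08, against 6.85 to 6.88) and Suclg1 (8.19, against 7.90 to 7.91). Medulla replicate 3 was low for Idh3b (14.14, against 14.22 on the others) and for Pgam2 (4.14, against 4.34), which was under the background bound. For both genes the other medulla arrays were tied or nearly so. Gaps of only 0.08 and 0.2 therefore made up shares of 1.0 and 0.961 of the range. Ganglion replicate 1 was high for Slc16a1 (11.28, against 10.53 to 10.64). Groups of 3 carotid body arrays were not examined this way.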

How the results depend on the processing

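Whole-tissue pools, 3 arrays in carotid body and 4 in each other tissue limit what these comparisons resolve, and members near the 2-fold limit change side easily. Signals near the bound (Hk2, Slc16a3, Pgam2) carry little information. Some members had the same value on several arrays, as Suclg1 on 5 and Dlst and Pgam2 on 4. The effect of such ties on the spread between pools was not tested. With no fold limit, 17 of 39 members were lower in carotid body than in medulla (7 with it), beside 4694 of all 30142 genes. Under the same rule 2 members were higher in carotid body than in ganglion (0 with it), beside 4286 of all genes, a smaller share than theirs. In medulla 6 were higher than in ganglion (3 with it), beside 4699 of all genes, a share close to theirs. That rule asks for less. When quantile normalization was repeated, 12 members were lower in carotid body than in ganglion, against 19, and the cause was not tested. It also turned the split of all genes to 2150 higher and 2048 lower in carotid body against ganglion (main 1691 and 2496) and to 2218 and 1896 in medulla against ganglion (main 1725 and 2262), and median centring that of carotid body against medulla to 1577 and 1966 (main 1828 and 1492). Leaving out 1 array at a time gave 2 to 3 members higher and 6 to 9 lower in carotid body than in medulla, 0 higher and 17 to 20 lower in carotid body than in ganglion, and 2 to 3 higher and 12 to 16 lower in medulla than in ganglion. A replicate block left all 117 member calls on their side of the threshold, as did testing protein-coding genes alone or averaging a gene's rows, and leaving out dim genes left all 114 it could test. No called difference reversed under any alternative run.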
